A study of Mus musculus with 6 samples.

Results

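The endoderm regulators described here are 8 mouse genes, the transcription factor genes Sox7, Sox17, Foxa1, Foxa2 and Foxa3 and the genes Dab2, Amn and Pth1r, out of 19938 genes measured. They were taken by symbol, because they act in definitive or in primitive endoderm, with earlier results of these data known. Each was read from its brightest probe set with 1 gene symbol. All were found, and 0 of them had a mean below 6 with an SD below 0.3 over the arrays, the limits that the study's methods used for undetectable genes. RNA was taken from embryoid bodies (EBs) of the established R1 line of mouse embryonic stem (ES) cells that were grown without leukaemia inhibitory factor from a suspension of 35000 cells/ml. At an age of 4 days the EBs received 2 μM retinoic acid (RA), and the day of this addition, before RA, is called day 0. All later EBs carried RA, so the groups are EBs before RA (day 0), EBs after 3 days in RA (day 3) and EBs after 4 days in RA (day 4), with 2 Affymetrix Mouse Gene 1.0 ST arrays each. Untreated EBs of matching age were not analysed here, so the effect of RA and that of further culture cannot be told apart.

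Definitive endoderm leaves the primitive streak at gastrulation and lines the gut, whereas primitive endoderm arises in the blastocyst and gives the visceral and parietal endoderm of the yolk sac. Sox7 and Sox17 are SoxF factors that also act in endothelium, and the Foxa proteins are winged-helix factors that open chromatin in the endoderm and its organs. Dab2 and Amn serve the uptake of nutrients at the surface of visceral endoderm, and Pth1r, the receptor of parathyroid hormone and its related peptide, is a classical product of parietal endoderm formed under RA.

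The levels are RMA intensities on the log2 scale, so a difference of 1 is a doubling, and levels of different probe sets cannot be set against each other. The 2 arrays of a day correlated at 0.999 or above across genes, which are not independent replicates. The labels name all samples embryonic stem cells. Of 10 pluripotency genes measured, 9 were lower at day 4 than at day 0 and 0 were higher, and Pou5f1, which encodes the pluripotency factor Oct4, read 10.27 and 10.20 on day 0, 6.31 and 6.01 on day 3, and 6.16 and 6.13 on day 4. The later EBs therefore did not carry the defining marker of ES cells at its day 0 level. Other endoderm genes were read beside the members, and their values follow the members below.

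Of the 8 genes, 5 passed the test for day 4 versus day 0 at an adjusted p of 0.05 or below (limma, adjusted over all genes), 3 higher and 2 lower. Among all genes 51.5% passed, 25.9% higher and 25.6% lower. For day 3 versus day 0 the count was 4 of 8, 2 higher and 2 lower, against 51.9% of all genes, 23.8% higher and 28.1% lower. The members' shares were thus near those of all genes, and what follows concerns single genes rather than the group. Dab2 and Pth1r were higher and Sox7 and Foxa3 lower on both later days, Foxa1 was higher at day 4, and Sox17, Foxa2 and Amn did not pass. Both comparisons use the same day 0 arrays. In bulk RNA, fewer cells of a type and less RNA per cell cannot be told apart.

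**Figure D1:**
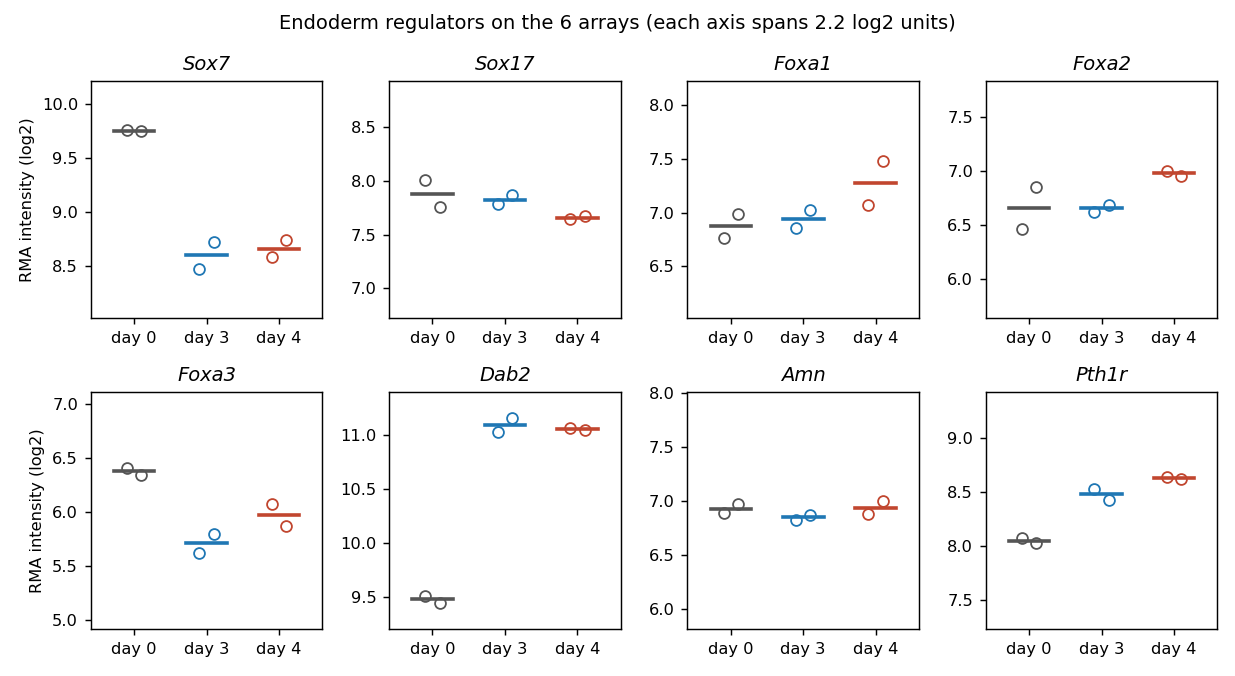
RMA intensity (log2, vertical axes) of the 8 endoderm regulators on each array at day 0, day 3 and day 4. Circles are single arrays and bars the mean of the 2 arrays of a day, each axis spans the same range, and Dab2 and Sox7 show the widest steps between day 0 and the later days.

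Sox7, which marks primitive endoderm and its parietal derivative and is also used in early blood vessels, fell. It read 9.76 and 9.75 on day 0, 8.47 and 8.73 on day 3, and 8.59 and 8.74 on day 4. Both arrays of each later day lay below both arrays of day 0, and the arrays of day 3 and day 4 overlapped. Its log2 change was −1.09 for day 4 versus day 0 (SE 0.09, 95% interval −1.31 to −0.87, adjusted p = 4.58e-05), or 2.13-fold lower. For day 3 versus day 0 it was −1.16 (SE 0.09, adjusted p = 3.93e-05), or 2.23-fold lower. Between day 4 and day 3 the change was 0.06, with a 95% interval of −0.16 to 0.28 (adjusted p = 0.654).

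Sox17, the related factor needed for definitive endoderm, stayed closer to its day 0 level. It read 8.01 and 7.75 on day 0, 7.78 and 7.86 on day 3, and 7.64 and 7.68 on day 4. Both day 4 arrays were below both day 0 arrays, by a small margin, while day 3 overlapped with day 0. The log2 change for day 4 versus day 0 was −0.22 (95% interval −0.43 to −0.02), and its adjusted p of 0.0709 missed the threshold. It passed with median centring of the arrays (−0.37, adjusted p = 0.00734), with cyclic loess (−0.25, adjusted p = 0.0403) and without day 0 replicate 2 (−0.35, adjusted p = 0.00863). Sox18, the remaining SoxF gene, which acts in endothelium, was higher at day 4 than at day 0 by 0.52 (adjusted p = 0.000548).

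The SoxF genes are shared with blood vessels, so 17 endothelial genes were read beside them. Of these, 8 were higher and 8 lower at day 4 than at day 0, and 1 did not pass. Emcn, a sialomucin of venous endothelium, rose by 4.75, whereas Etv2, the factor that starts the endothelial and blood lineages, fell by 4.13. The receptor gene Eng (−1.74) and the ETS factor gene Fli1 (−1.59) fell, while Pecam1, an adhesion molecule between endothelial cells, rose by 0.56. Nos3, the endothelial nitric oxide synthase gene, changed by −0.15 and did not pass (adjusted p = 0.0605). The mean linear intensity of the list, given as log2, was 9.70 and 9.67 on day 0, 9.48 and 9.57 on day 3, and 9.29 and 9.27 on day 4. This level weighs bright genes most and was lower on the later days, while the single genes moved both ways. For day 3 versus day 0, 9 of the 17 genes were higher and 7 lower, with a median of 0.25. The median was −0.15 for day 4 versus day 0. The list's part in the Sox7 values was not tested.

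Foxa1 and Foxa2 are expressed in definitive endoderm, the node and the floor plate, and Foxa3 in the gut and liver. Foxa1 read 6.76 and 6.98 on day 0, 6.86 and 7.02 on day 3, and 7.07 and 7.47 on day 4. Both day 4 arrays were above all 4 earlier arrays, and day 4 replicate 2 stood highest. This was a log2 change of 0.40 for day 4 versus day 0 (SE 0.14, 95% interval 0.07 to 0.73, adjusted p = 0.0455) and 0.06 for day 3 versus day 0 (adjusted p = 0.733). The call at day 4 was close to the threshold and was kept under 5 of the 14 alternative settings. It was lost with median centring (0.25, adjusted p = 0.171), without day 0 replicate 1 (0.29, adjusted p = 0.218) and without day 4 replicate 2 (0.20, adjusted p = 0.23).

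Foxa2 read 6.47 and 6.85 on day 0, 6.63 and 6.69 on day 3, and 7.01 and 6.96 on day 4. The day 4 arrays were again above all earlier ones, while the day 0 arrays lay on either side of those of day 3. The log2 change was 0.32 for day 4 versus day 0 (SE 0.11, 95% interval 0.05 to 0.59), with an adjusted p of 0.0503 that just missed the threshold. Without day 0 replicate 2 it was 0.51 (adjusted p = 0.00146), and without day 0 replicate 1 it was 0.13. For day 3 versus day 0 it was −0.0037 (adjusted p = 0.982). Between day 4 and day 3 the log2 changes of Foxa1 and Foxa2 were 0.34 and 0.33 and did not pass (adjusted p = 0.115 and 0.0743).

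Foxa3 ran the other way. It read 6.41 and 6.34 on day 0, 5.62 and 5.80 on day 3, and 6.07 and 5.87 on day 4, so that day 0 was highest and day 3 lowest, with no overlap between any of the days. Its log2 change was −0.67 for day 3 versus day 0 (SE 0.09, 95% interval −0.88 to −0.46, adjusted p = 0.000515), or 1.59-fold lower. For day 4 versus day 0 it was −0.41 (SE 0.09, adjusted p = 0.00611), and for day 4 versus day 3 it was 0.26 (adjusted p = 0.0673). Its levels lay near 6, where RMA compresses differences.

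The promoters of Foxa1 and Foxa3 are shown because these Foxa genes passed the test in opposite directions. The windows hold 250 bases before and 50 after an annotated start, from RefSeq (GRCm38.p6, minus strand), chr12:57546062-57546361 for Foxa1 and chr7:19023490-19023789 for Foxa3. Capitals mark motif matches.
Foxa1: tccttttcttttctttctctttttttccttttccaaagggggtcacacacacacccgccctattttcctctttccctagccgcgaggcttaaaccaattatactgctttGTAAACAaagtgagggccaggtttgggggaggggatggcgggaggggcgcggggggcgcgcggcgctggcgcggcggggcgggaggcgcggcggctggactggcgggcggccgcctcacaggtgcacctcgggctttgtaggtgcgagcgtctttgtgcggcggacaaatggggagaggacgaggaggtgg
Foxa3: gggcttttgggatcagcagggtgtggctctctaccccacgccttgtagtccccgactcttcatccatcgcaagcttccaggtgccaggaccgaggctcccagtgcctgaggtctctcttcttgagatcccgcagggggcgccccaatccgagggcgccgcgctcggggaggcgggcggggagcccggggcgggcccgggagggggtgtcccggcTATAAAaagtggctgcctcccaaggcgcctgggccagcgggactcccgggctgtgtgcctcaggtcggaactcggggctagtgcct
The Foxa1 window holds the forkhead motif TGTTTAC on its opposite strand, at −141 to −135 from the start, and 3.65% of the 32851 promoter windows hold this motif. The Foxa3 window has TATAAA at −36 to −31, as 13.62% of all windows have somewhere. Both windows hold more CpG than the median of 7, with 26 for Foxa1 and 22 for Foxa3. Of all windows, 16.9% and 23.1% hold at least as many. One of the Foxa2 windows, not shown, holds TATAAA and the GATA motif AGATAA. The forkhead motif TGTTTGC and the Sox motif AACAAT, found in 5.07% and 10.72% of all windows, had no match in the 11 windows of the 6 endoderm regulators that RefSeq's table held. Motifs were searched on both strands, and a match is a description of the letters.

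Genes of the floor plate and node, where Foxa1 and Foxa2 also act, were read beside them. Of 13 measured, 6 were higher and 2 lower at day 4 than at day 0, and 5 did not pass. Shh, the ligand that Foxa2 helps to switch on in the floor plate, read 7.10 and 7.11 on day 0, 6.95 and 7.14 on day 3, and 7.71 and 7.94 on day 4. Its log2 change was 0.72 for day 4 versus day 0 (adjusted p = 0.000394) and 0.78 for day 4 versus day 3 (adjusted p = 0.0016). Ntn1, the axon guidance gene of the floor plate, likewise differed by 1.37 between day 4 and day 0 and by 1.20 between day 4 and day 3. The hedgehog targets Gli1 and Ptch1 were higher by 1.55 and 0.56 at day 4 and by 1.51 and 0.54 at day 3, both against day 0. Nog, a BMP antagonist of the node, fell by 0.87, and Nkx2-2, a factor of ventral neural tube, did not pass (−0.0041, adjusted p = 0.965). The mean linear intensity of the list, given as log2, was 7.84 and 7.81 on day 0, 8.12 and 8.23 on day 3, and 8.25 and 8.34 on day 4. This level weighs bright genes most, and Ptch1 was the brightest of the list. For day 3 versus day 0, 3 of the 13 genes were higher and 2 lower, with a median of −0.06. The list's part in the Foxa1 and Foxa2 values was not tested.

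Dab2, an adaptor that links clathrin to receptors of the LDL receptor family and is needed to organise primitive endoderm, rose most of the 8 genes. It read 9.51 and 9.44 on day 0, 11.02 and 11.16 on day 3, and 11.07 and 11.05 on day 4. All later arrays lay far above both day 0 arrays, and those of day 3 and day 4 overlapped. This was a log2 change of 1.58 for day 4 versus day 0 (SE 0.06, 95% interval 1.43 to 1.73, adjusted p = 1.19e-06), or 3.00-fold higher. For day 3 versus day 0 it was 1.61 (SE 0.06, adjusted p = 1.25e-06), or 3.06-fold higher. Day 4 and day 3 differed by −0.03, with a 95% interval of −0.18 to 0.12. A dimmer Dab2 probe set read between 4.09 and 4.29 on all arrays, and the mean of both probe sets gave 0.77 for day 4 versus day 0.

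RefSeq gives 2 promoter windows for Dab2, which are shown because Dab2 changed most (GRCm38.p6, plus strand). They are chr15:6299539-6299838 (window 1) and chr15:6386498-6386797 (window 2), and capitals mark GATA motifs.
Dab2 window 1: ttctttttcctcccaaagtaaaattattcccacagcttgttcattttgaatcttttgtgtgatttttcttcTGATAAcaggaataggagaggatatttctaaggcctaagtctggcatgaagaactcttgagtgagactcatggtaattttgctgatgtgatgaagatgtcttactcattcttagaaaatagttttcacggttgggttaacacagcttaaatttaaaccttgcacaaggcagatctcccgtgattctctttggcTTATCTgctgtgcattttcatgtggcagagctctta
Dab2 window 2: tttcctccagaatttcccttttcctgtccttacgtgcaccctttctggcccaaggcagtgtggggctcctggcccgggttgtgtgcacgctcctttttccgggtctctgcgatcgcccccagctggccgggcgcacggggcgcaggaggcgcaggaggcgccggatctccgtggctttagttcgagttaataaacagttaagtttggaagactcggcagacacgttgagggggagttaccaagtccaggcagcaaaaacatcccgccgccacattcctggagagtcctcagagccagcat
Window 1 holds TGATAA at −179 to −174 and, on the opposite strand, AGATAA at 14 to 19 after the start. These letters occur in 9.05% and 11.18% of all windows. Window 2 holds neither. The windows also differ in composition, with 37.7% GC and 2 CpG in window 1, against 59.3% GC and 19 CpG in window 2. Which start was in use cannot be read from the probe set, and the retinoid response elements DR1, DR2 and DR5 had no match in any of the 11 windows and are found in 0.22%, 0.27% and 0.1% of all windows.

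The GATA factors, which lead primitive endoderm, moved in the same direction as Dab2. Gata6 read 10.80 and 10.83 on day 0, 12.80 and 12.74 on day 3, and 12.81 and 12.80 on day 4, a log2 change of 1.99 for day 4 versus day 0 (adjusted p = 2.01e-07). Gata4 rose by 1.67 and Gata5 by 3.81. All 3 also act in heart and other mesoderm, so these values do not single out endoderm. Genes whose pattern was nearest to that of Dab2, over 12956 genes whose mean reached 6, were Pcmtd2, Add3 and Zeb1, with root mean square differences of 0.0466, 0.0468 and 0.0526 over the 6 arrays after each gene's own mean was subtracted. For Sox7 they were Actc1 (0.0433), Hoxd1 (0.0447) and Dyrk3 (0.0505).

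Amn encodes amnionless, which carries the receptor cubilin to the cell surface. It read 6.89 and 6.97 on day 0, 6.83 and 6.87 on day 3, and 6.88 and 7.00 on day 4. The day 4 arrays overlapped with those of day 0, while both day 3 arrays lay below both day 0 arrays, by a small margin. The log2 change was 0.01 for day 4 versus day 0, with a 95% interval of −0.14 to 0.16 (adjusted p = 0.929). A change beyond about 0.16 either way lies outside this interval, which holds for the values as deposited. Under the 14 alternatives the change at day 4 ran from −0.14, with median centring, to 0.07. For day 3 versus day 0 the log2 change was −0.08 (adjusted p = 0.32).

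Dab2 and Amn serve the same uptake route, and 17 of its other genes were measured. Of these, 4 were higher and 11 lower at day 4 than at day 0, and 2 did not pass, with a median change of −0.37 against −0.0013 for all genes. Cubn, the gene of cubilin, read 6.68 and 6.95 on day 0, 6.52 and 6.51 on day 3, and 6.22 and 6.22 on day 4, a change of −0.59 for day 4 versus day 0 (adjusted p = 0.000742). Lrp2, the gene of the receptor megalin, read 8.31 and 8.06 on day 0, 8.36 and 8.37 on day 3, and 7.63 and 7.53 on day 4, a change of −0.61 (adjusted p = 0.000683). The receptor genes Cubn and Lrp2 were thus lower at day 4, when the adaptor gene Dab2 was higher. For day 3 versus day 0, when Dab2 was also higher, Lrp2 did not pass (0.18, adjusted p = 0.126). Cubn was lower at day 3 (−0.30, adjusted p = 0.0212), a call lost with all probe sets tested and without either day 3 array. At day 4 the related receptor genes Lrp8 and Vldlr fell (−2.31 and −1.59). The clathrin light chain gene Cltb and the motor gene Myo6 rose by 1.27 and 0.93. Ap2m1, a subunit of the clathrin adaptor AP2, did not pass (0.09, adjusted p = 0.178).

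Dab2 is also found in macrophages, so 9 macrophage genes were read. At day 4, 0 were higher and 2 lower than at day 0, and 7 did not pass. Cd68, a lysosomal glycoprotein (−1.62), and Spi1, a myeloid transcription factor (−0.58), fell, while the growth factor receptor Csf1r did not pass (0.0049, adjusted p = 0.963). Of the 9 genes, 8 had a mean below 6. The mean linear intensity of the list, given as log2, was 6.42 and 6.35 on day 0, 5.99 and 5.85 on day 3, and 5.58 and 5.67 on day 4, which follows Cd68, the brightest gene of the list. The part of macrophages in the Dab2 values was not tested.

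Pth1r read 8.07 and 8.02 on day 0, 8.53 and 8.43 on day 3, and 8.64 and 8.62 on day 4. The days did not overlap, with day 0 lowest and day 4 highest. Its log2 change was 0.58 for day 4 versus day 0 (SE 0.06, 95% interval 0.44 to 0.72, adjusted p = 0.000108). For day 3 versus day 0 it was 0.43 (SE 0.06, adjusted p = 0.000596), and for day 4 versus day 3 it was 0.15 (adjusted p = 0.0978). Pth1r kept its call at both later days under all 14 alternatives, with log2 changes of 0.44 to 0.61 for day 4 versus day 0.

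Of 8 other genes of parathyroid hormone signalling, 1 was higher and 3 lower at day 4 than at day 0, and 4 did not pass. Pthlh, Gnas and Prkaca, also on this list, were not measured here. Gnaq, the G protein subunit that couples the receptor to phospholipase C, rose by 0.72. Arrb1 and Arrb2, the arrestins that bind the activated receptor, fell (−0.93 and −0.78), and the scaffold gene Slc9a3r1 fell by 0.19, a call that was lost with cyclic loess, with all probe sets tested and without any 1 of the arrays of these days. Pth, the hormone gene, read no higher than 4.74 on any array and did not pass (−0.05, adjusted p = 0.63).

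Pth1r is also a receptor of kidney tubule, bone and cartilage. Of 8 kidney tubule genes, 1 was higher and 0 lower at day 4 than at day 0. It was Aqp1, a water channel also found in other cells, which rose by 1.57 and differed by 1.26 between day 4 and day 3. Slc34a1, the phosphate transporter of the proximal tubule, did not pass (0.0073, adjusted p = 0.948). The mean linear intensity of this list, given as log2, was 6.21 and 6.21 on day 0, 6.22 and 6.22 on day 3, and 6.64 and 6.72 on day 4, and the higher value on day 4 is that of Aqp1, the only gene of the list that passed. Of 7 bone and cartilage genes, 3 were higher and 3 lower, and 1 did not pass. Sox9, the cartilage factor that is also used in many progenitors, rose by 1.33 and Ibsp, a bone matrix protein, by 0.60, while Alpl, an alkaline phosphatase that ES cells also express (−2.67), and Acan, the cartilage proteoglycan (−0.23), fell, and the call of Acan was lost without day 0 replicate 1 or day 4 replicate 1. Sp7, a defining factor of osteoblasts, read between 5.11 and 5.80 and did not pass for day 4 versus day 0 (0.11, adjusted p = 0.433). The bone list stood at 9.08 and 9.15 on day 0, 8.64 and 8.66 on day 3, and 8.71 and 8.68 on day 4 on the same scale. The part of these cell types in the Pth1r values was not tested.

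**Figure D2:**
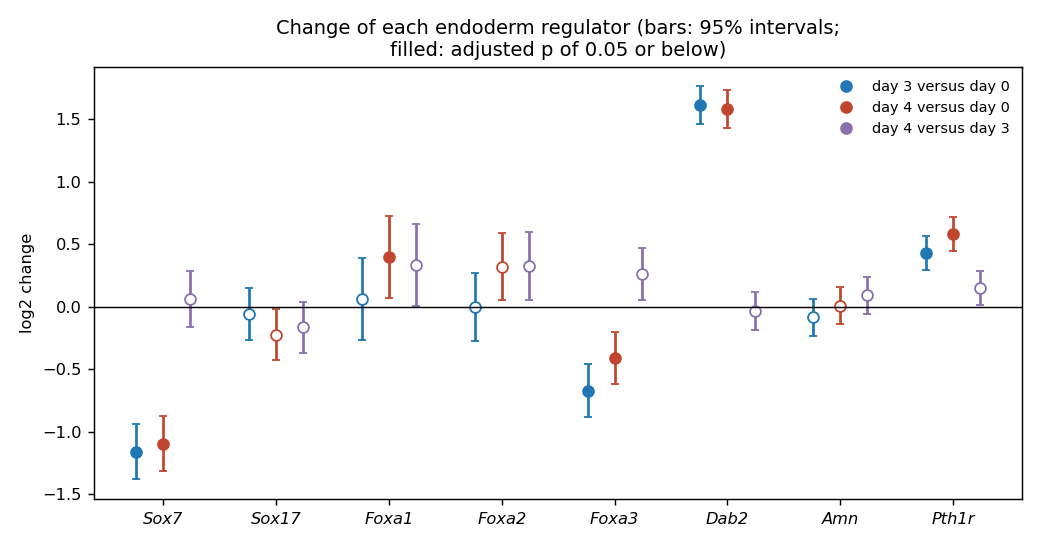
Log2 change (vertical axis) of each endoderm regulator for both later days against day 0 and for day 4 against day 3, with bars for 95% intervals from the fit and filled circles at an adjusted p of 0.05 or below. Dab2 stands at 1.61 and 1.58 against day 0 and Sox7 at −1.16 and −1.09, and no circle for day 4 versus day 3 is filled.

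Between day 4 and day 3, 0 of the 8 genes passed the test (limma), against 28.1% of all genes, 15.8% higher and 12.2% lower. At an unadjusted p below 0.05 the count was 4 of 8, all higher at day 4, against 40.7% of all genes in either direction. These were Foxa1, Foxa2, Foxa3 and Pth1r, with log2 changes of 0.34, 0.33, 0.26 and 0.15. Both day 4 arrays of each, and also of Amn, lay above both day 3 arrays. The share of all genes with such a separation is not given here. Of all genes that passed the adjusted threshold, 56.4% were higher at day 4, or 42.4% with median centring. The median over the 8 genes was 0.12, and 0.05 over all genes. For Sox7, Dab2 and Amn the intervals of the difference spanned 0, at −0.16 to 0.28, −0.18 to 0.12 and −0.06 to 0.24. Sox17 was at −0.16, with both day 4 arrays below both day 3 arrays and an interval of −0.37 to 0.04 (adjusted p = 0.206).

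The wider set of endoderm genes showed in which company these genes moved. Of 16 endoderm transcription factor genes beside the members, 3 were higher and 8 lower at day 4 than at day 0, and 5 did not pass. The 3 higher ones were the GATA genes above. The falls were led by Mixl1 and Eomes, the mesendoderm factors of the primitive streak (−5.09 and −4.78), and Sall4, a factor of ES cells and primitive endoderm (−4.21). Hnf4g, a nuclear receptor of gut, did not pass (−0.01, adjusted p = 0.922). The median of the list was −0.32.

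Of 23 genes of the signals that induce endoderm, 5 were higher and 12 lower, and 6 did not pass. Foxh1, the partner of the nodal-activated SMADs, fell most (−5.52), followed by the nodal co-receptor gene Tdgf1 (−4.97), Wnt3, which is needed to form the primitive streak (−3.35), and the nodal antagonist gene Lefty2 (−2.90). Pdgfra, a receptor of primitive endoderm and also of mesoderm, rose by 1.88. The activin receptor gene Acvr2a did not pass at day 4 (0.0072, adjusted p = 0.943).

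Among 15 definitive endoderm genes, 2 were higher and 10 lower, and 3 did not pass, with a median of −0.96. Trh, which encodes thyrotropin-releasing hormone (−3.60), Hhex, a homeobox factor of anterior endoderm (−2.56), and Cdh1, the epithelial cadherin gene (−2.25), fell. Epcam and Krt8, which are epithelial genes found beyond endoderm, also fell (−0.79 and −1.61). Nepn, a proteoglycan of the midgut endoderm, rose by 2.43. Cer1, a secreted antagonist of anterior endoderm, read between 4.92 and 5.19 on all arrays and did not pass (−0.01, adjusted p = 0.923).

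Among 20 visceral endoderm genes, 6 were higher and 6 lower, and 8 did not pass. Apoa1, the main protein of high-density lipoprotein, rose by 1.58 and Rbp4, the carrier of retinol, by 0.81, a call that did not hold when day 0 replicate 1 (adjusted p = 0.0529) or day 4 replicate 2 (adjusted p = 0.066) was left out. Ttr, the carrier of thyroxine, read 6.34 and 6.52 on day 0, 6.90 and 7.38 on day 3, and 6.91 and 7.13 on day 4, a change of 0.59 (adjusted p = 0.015) that was lost without the same arrays. Afp, the fetal serum protein, rose by 0.29 (adjusted p = 0.0336), a call lost with median centring (0.15, adjusted p = 0.191), with all probe sets tested and without day 4 replicate 1 or either day 0 array. It read between 5.39 and 5.97 on all arrays. Alb, the albumin gene, read between 4.79 and 4.94 and did not pass, so that these defining serum proteins lay below 6 throughout. The growth factor gene Bmp2 (−3.79), the apolipoprotein gene Apoe (−1.25) and Spink1, a protease inhibitor (−0.50), fell. Of the 20 genes, 8 had a mean below 6.

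Among 14 parietal endoderm genes, 5 were higher and 8 lower, and 1 did not pass. Plat, the tissue plasminogen activator that RA induces in parietal cells in culture, read 7.72 and 7.27 on day 0, 11.80 and 11.86 on day 3, and 11.73 and 11.73 on day 4, a change of 4.24 (adjusted p = 3.86e-07). The basement membrane genes Col4a1 and Col4a2, which parietal endoderm makes in large amounts, fell (−0.82 and −0.79), as did Fst, an activin antagonist (−2.37). Srgn, a granule proteoglycan, varied between 7.34 and 8.93 over the arrays and did not pass (−0.40, adjusted p = 0.298).

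Among 16 genes of the gut tube and its organs, 2 were higher and 6 lower, and 8 did not pass. The caudal homeobox genes Cdx2 and Cdx4 (−4.75 and −1.63), the foregut and stem cell factor gene Sox2 (−2.28) and Tbx3, a factor of liver buds and ES cells (−1.59), fell. Nkx2-3, a gut mesenchyme factor, did not pass (0.04, adjusted p = 0.797). The name endoderm regulators rests on what the 8 genes are known for, not on these values. In the definitive, parietal and gut lists more called genes were lower than higher at day 4. The visceral list had 6 of each, and the list medians lay between −0.96 and 0.09.

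The same lists were read for the other comparisons. Against day 0, day 3 had 4 higher and 9 lower of the 16 further transcription factor genes, 6 higher and 12 lower of the 23 signal genes, and 1 higher and 12 lower of the 15 definitive endoderm genes. It had 4 higher and 5 lower of the 20 visceral endoderm genes, 2 higher and 5 lower of the 14 parietal endoderm genes, and 0 higher and 7 lower of the 16 gut genes. Definitive endoderm genes were thus mostly lower by day 3 and gut genes mostly uncalled, where 23.8% of all genes were higher and 28.1% lower. Between day 4 and day 3 the counts of higher and lower genes were 3 and 3 among transcription factors, 5 and 3 among signals, 4 and 2 in definitive, 2 and 4 in visceral and 4 and 4 in parietal endoderm, and 3 and 2 in the gut list. Without day 3 replicate 1, the called genes were 2 in place of 8 among signals, 3 in place of 6 in visceral endoderm, 3 in place of 8 in parietal endoderm and 3 in place of 5 in the gut list. Without day 4 replicate 2 they were 4, 3 and 3 among signals, in visceral and in parietal endoderm, without day 4 replicate 1 they were 5 among signals and 5 in parietal endoderm, and without day 3 replicate 2 they were 4 in parietal endoderm. The gut list also had 3 called without either day 0 array. Cubn and Lrp2 were lower at day 4 than at day 3 (−0.29 and −0.79, adjusted p = 0.0418 and 0.00124). The Cubn call was lost without any 1 of the day 3 and day 4 arrays (adjusted p = 0.122 to 0.147) and with all probe sets tested (adjusted p = 0.085).

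**Figure D3:**
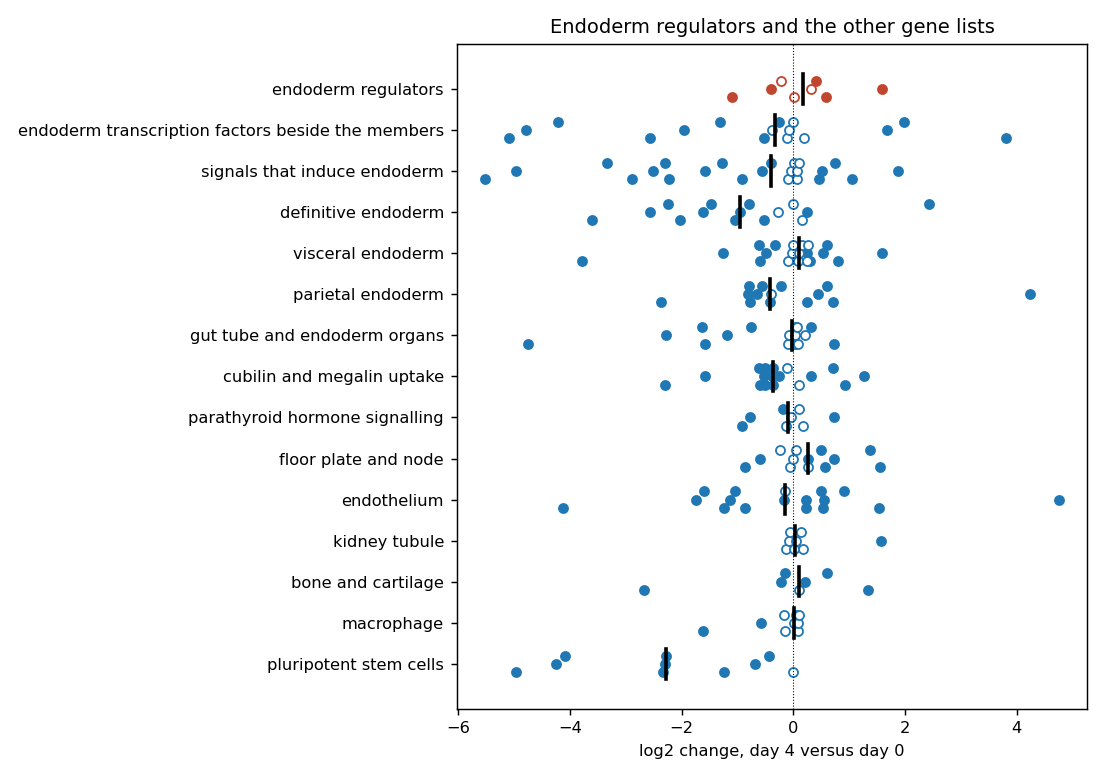
Log2 change for day 4 versus day 0 (horizontal axis) of the 8 endoderm regulators (top row) and of the measured genes of 14 lists, with filled circles at an adjusted p of 0.05 or below and a vertical bar at each list's median. The members' median is 0.17, the definitive endoderm list has its median at −0.96 and the pluripotent stem cell list at −2.29.

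The processing left the larger steps in place. Sox7, Foxa3, Dab2 and Pth1r passed for both later days against day 0 under all 14 alternatives, with ranges for day 4 of −1.24 to −1.02, −0.56 to −0.31, 0.77 to 1.61 and 0.44 to 0.61. Amn passed under none of them, and Sox17, Foxa1 and Foxa2 passed under 3, 5 and 5. Median centring moved the median of all genes to −0.15 on both later days. Under it the share of passing genes that were higher was 30.7% for day 4 versus day 0 and 31.4% for day 3 versus day 0, in place of 50.2% and 45.9%, and 42.4% in place of 56.4% for day 4 versus day 3.

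**Figure D4:**
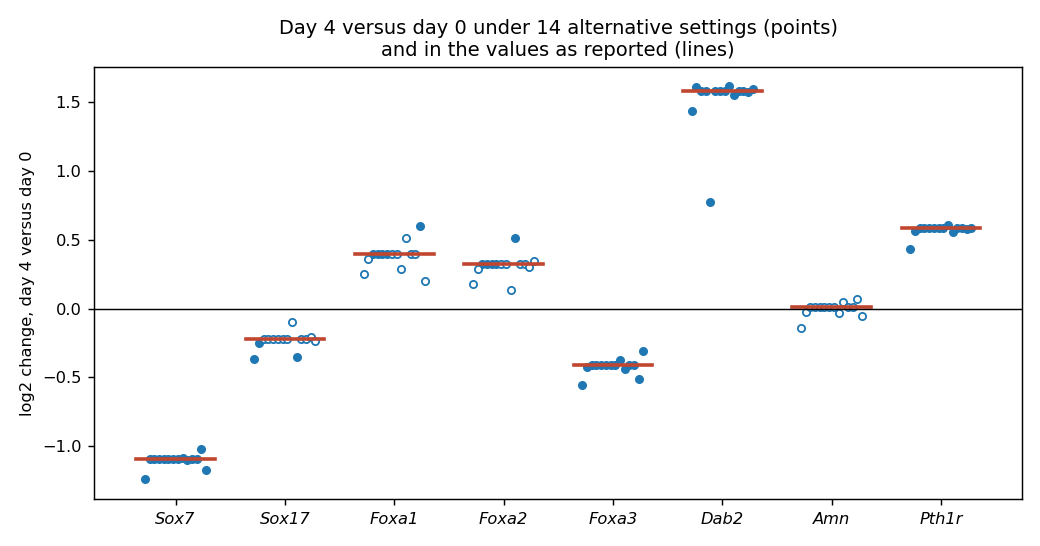
Log2 change for day 4 versus day 0 (vertical axis) of each endoderm regulator under the 14 alternative settings (points, filled at an adjusted p of 0.05 or below) and as reported (lines). The points for Dab2 lie above 0 throughout, with 0.77 for the mean of its probe sets, while those for Foxa1, Foxa2 and Sox17 are filled under 5, 5 and 3 settings.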

How the data were processed

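EBs from 3 days were measured on 6 arrays of 1 colour, 2 a day, grouped by the sample titles. As deposited, the table holds log2 intensities made by the authors with RMA in Partek (version for the arrays: not given in the sources used here). RMA subtracts background, gives all arrays a common distribution and summarises probes, so changes are relative to the rest of the array.

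Of 35557 probe sets, 21789 had 1 gene symbol in GEO's platform annotation, 1621 had several and 12147 were unnamed here. Those with 1 symbol gave 19938 genes, and the probe set with the highest mean was used for the 999 genes with several. One fit over all 6 arrays used limma 3.58.1 under R 4.3.3 (functions lmFit and eBayes, 3 residual and 4.07 prior degrees of freedom). Tests were two-sided, with Benjamini-Hochberg adjustment over all genes and a threshold of 0.05. The fit was tested on simulated data. SE and 95% intervals come from this fit. Intensities have no depth, so precision is limited by how many arrays there are. Nothing in the labels says that the 2 arrays of a day are separate cultures, and the spread behind the p-values may be technical. For day 0 and day 4 the paper reports 2 biological replicates, without tying them to the arrays. An exact permutation test of 2 against 2 arrays cannot pass the threshold.

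The members, the 14 lists (203 distinct genes, of which 186 were measured) and the tests were chosen with earlier results of these data known. Of each list, the text names up to 4 genes with the largest change among those that passed for day 4 versus day 0, and 1 with the largest adjusted p. For members whose day means span at least 1 (log2), it names the 3 genes of nearest pattern. Gata4, Gata6, Sox18, Cubn, Lrp2, Krt8, Epcam, Ttr, Afp, Pecam1, Ptch1, Pdgfra and Spink1 were named after their values were seen. The alternatives were median centring, cyclic loess, an intensity trend with robust moderation, a minimum mean of 6, the mean of a gene's probe sets, all probe sets tested, a fit of only the days compared, the replicate number as a block, and leaving out each array. Promoter windows come from RefSeq (GRCm38.p6), and the table used here held them for 6 of the 8 genes. Those of Sox7 and Sox17 were not analysed here.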

Additional observations from a re-analysis of the deposited data

How the results depend on the processing

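Of the members' 24 log2 changes (8 genes, 3 comparisons) under 14 alternatives each, 312 values stayed on their side of the threshold, 9 lost the call, 15 gained it and 0 called values reversed. Of the 312, 14 changed sign while uncalled. Of 249 changes of the other named genes, 3315 values stayed on their side of the threshold, 90 of them with a changed sign while uncalled, 99 lost the call, 30 gained it and 0 called values reversed, and 42 had no value because the genes lay below the minimum mean of 6. The count of members that passed for day 4 versus day 3, 0 as reported, was 1 with an intensity trend and robust moderation (Foxa2), 1 with a minimum mean of 6 (Foxa3), 1 in a fit of only the 2 days compared (Foxa2) and 1 with the replicate block (Foxa1, adjusted p = 0.0199). Leaving out 1 array gave 0 to 1, with Foxa2 called without either day 0 array (adjusted p = 0.0115) and Foxa1 without day 4 replicate 1 (0.54, adjusted p = 0.0309). The genes called for day 4 versus day 3, 5593 of 19938, were 2728 to 5276 when 1 array was left out, with 2728 without day 3 replicate 1, 3650 without day 3 replicate 2 and 3005 without day 4 replicate 2. Median centring raised the genes called lower to 8521 for day 4 versus day 0 and 8495 for day 3 versus day 0, against 5106 and 5596.

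With the replicate number as a block, Foxa2 also passed for day 4 versus day 0 (adjusted p = 0.0421). Arrays with the same number deviated together only weakly (r = 0.058 for day 4 and day 0, 0.0342 for day 3 and day 0, 0.0834 for day 4 and day 3). These values cannot show whether arrays of the same number were paired. Of the lists at day 4 versus day 0, visceral endoderm had 7 genes called without day 0 replicate 1, against 12, bone and cartilage 3 without the same array, against 6, kidney tubule 4 and macrophage 4 with median centring, against 1 and 2. The cause of these shifts was not tested. The signal over background limits genes near 6, such as Foxa3, whose changes RMA can understate.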
